A study of Homo sapiens with 24 samples.

Results

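The genes described here are the nuclear genes whose names mark them as subunits of the 5 complexes of oxidative phosphorylation. The rule for choosing them read names alone, and it was set with earlier results of these data known. It took NDUFA, B, C, S and V genes with a number (complex I), SDHA to SDHD (complex II) and 8 UQCR genes (complex III). It also took COX4 to COX8 genes of series A, B and C (complex IV) and ATP5 genes (complex V). Names that end in P and a digit were left out. The rule found 81 of the 25680 genes in the tables, 37 in complex I, 4 in complex II, 8 in complex III, 14 in complex IV and 18 in complex V. For a test, a gene had to reach a value of 10 in 3 or more libraries of a line, which 76 members did in MV411, 75 in MOLM13 and 79 in OCI-AML3. COX6A2 and COX7B2 were below that level in all 3 lines, and COX7A1, COX8C and ATP5L2 were tested only in OCI-AML3. The name rule leaves out COX4I1 and takes in ATP5S and ATP5SL, which are now called DMAC2L and DMAC2 and are not counted as subunits of the enzyme. NDUFA4 is counted under complex I by its name, although its protein is now placed in complex IV.

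Polyadenylated RNA was sequenced from 3 human cell lines grown from acute myeloid leukaemia, with 3 libraries in each of 8 groups (24 in all). An MLL (KMT2A) fusion and an internal duplication that activates the receptor kinase FLT3 are known in MV411 and MOLM13, whereas OCI-AML3 is known for its NPM1 mutation and lacks such a fusion. MV411 was given DMSO as the control, MI-503, an inhibitor of the contact between menin and MLL, at 2.5 µM for 3 days, AC220 (quizartinib), an inhibitor of the FLT3 kinase, at 3 nM for 24 h, or the pair of drugs. MOLM13 and OCI-AML3 were given DMSO or MI-503 at 2.5 µM for 4 days. Each line is a single cultured line, no untreated cells outside these groups were analysed here, and how the triplicate cultures were separated is not described.

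Oxidative phosphorylation takes electrons from NADH at complex I and from succinate at complex II, passes them through complex III and cytochrome c to oxygen at complex IV, and uses the proton gradient built on the way to make ATP at complex V. Each complex except complex II also holds subunits encoded in mitochondrial DNA, so nuclear and mitochondrial genes must be expressed together. Complex I has core subunits that carry the flavin and the iron-sulfur clusters, and many accessory subunits that surround them. The transcription factors NRF1, GABP (an ETS factor) and YY1 are known to bind promoters of many of these genes. Leukaemic cells, and leukaemia stem cells in particular, are known to draw heavily on this pathway. None of the 26 listed mitochondrially encoded genes was in the tables, and they are not analysed here.

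Promoter sequence was available from RefSeq (GRCh38.p14) for 66 of the 81 members, in 78 windows that run from 250 bases before to 50 bases after a transcript start. Exact letters of 3 motifs were searched on both strands, and matches of different motifs were allowed to overlap. The NRF1 motif GCATGCGC was found in 19.2% of the members' windows and in 3.05% of 35116 windows of all genes. The ETS motif CCGGAAG was found in 25.6% against 10.3%, and the YY1 motif AAGATGGC in 16.7% against 2.89%. These are descriptions of letters, not of binding. The 120 bases before the start are printed below for 5 members whose values carry the comparisons that follow, in lower case with a motif match in capitals.
ATP5G1 (chr17:48892667-48892786, plus strand, no match in the window): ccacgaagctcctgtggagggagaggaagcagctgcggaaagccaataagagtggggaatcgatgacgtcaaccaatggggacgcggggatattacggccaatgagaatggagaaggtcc
UQCRQ (chr5:132866522-132866641, plus strand, ETS in capitals): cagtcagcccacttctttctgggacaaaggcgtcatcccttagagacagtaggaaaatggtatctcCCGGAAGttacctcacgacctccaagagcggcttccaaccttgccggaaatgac
NDUFS7 (chr19:1383787-1383906, plus strand, NRF1 in capitals, with a YY1 match elsewhere in the window): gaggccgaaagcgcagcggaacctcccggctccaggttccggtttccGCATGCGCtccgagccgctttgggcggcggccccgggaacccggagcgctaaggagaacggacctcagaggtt
NDUFA8 (chr9:122159780-122159899, minus strand, an NRF1 match lies in the window outside this stretch): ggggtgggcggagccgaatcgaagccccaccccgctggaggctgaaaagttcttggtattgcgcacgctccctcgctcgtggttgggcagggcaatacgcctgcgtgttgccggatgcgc
NDUFB6 (chr9:32573160-32573279, minus strand, no match in the window): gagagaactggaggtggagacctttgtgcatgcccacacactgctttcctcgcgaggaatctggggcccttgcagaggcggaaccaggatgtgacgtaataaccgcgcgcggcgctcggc
All 5 stretches end 1 base before the transcript start.

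Reads assigned to genes ranged from 23168887 to 26596469 per library in MV411, 23281330 to 27240357 in MOLM13 and 44364964 to 72994481 in OCI-AML3. Values below are normalised read counts, that is, recovered reads divided by 1 median-of-ratios factor per library within each line, and log2 fold changes of these values plus 1, with limma's standard error and n = 3 libraries per group. A gene is said to rise or fall when limma's Benjamini-Hochberg adjusted p over all genes tested was under 0.05. The deposited values of MOLM13 and OCI-AML3 use other factors, which move all genes of a library together, so those lines are given on both scales. In OCI-AML3 they were 0.8831, 1.268 and 1.041 times the median-ratio values in DMSO replicates 1 to 3. Under MI-503 they were 0.8617, 0.8098 and 1.199 times those values. Beside a shift between groups, the deposited factors thus widen the spread within groups in OCI-AML3. In bulk RNA, fewer cells of a type and less RNA per cell cannot be told apart. Myeloid markers (8 of 8 with a mean of at least 10 in every group) moved with treatment: their summed normalised count was 73200 to 74200 in MV411 under DMSO, 213000 to 223000 under MI-503, 118000 to 123000 under AC220 and 242000 to 243000 under the combination. In MOLM13 it was 33500 to 34700 under DMSO and 46700 to 49200 under MI-503, and in OCI-AML3 157000 to 160000 and 136000 to 137000. The part of this shift in the results below was not tested. T and NK markers (1 of 6 with a mean of at least 10 in each group) summed to 882 to 910 in MV411 under DMSO, 1720 to 1860 under MI-503, 986 to 1060 under AC220 and 2260 to 2550 under the combination. In MOLM13 they summed to 259 to 267 under DMSO and 760 to 861 under MI-503, and in OCI-AML3 to 119 to 127 and 175 to 193. CD3E was at 0 in MV411 under DMSO and MI-503 and in both MOLM13 groups. B-cell markers (1 to 3 of 4 with a mean of at least 10) summed to 126 to 148 in MV411 under DMSO, 67.2 to 82.8 under MI-503, 113 to 149 under AC220 and 71.2 to 93.6 under the combination. They summed to 1340 to 1380 in MOLM13 under DMSO and 888 to 1010 under MI-503, and to 41.6 to 54.7 and 32.7 to 47.2 in OCI-AML3, with MS4A1 at 0 in every MV411 and MOLM13 group. Erythroid markers summed to at most 8.45 in MV411 and 4.03 in MOLM13. In OCI-AML3 2 libraries stood apart, with a sum of 617 in DMSO replicate 3 and 440 in MI-503 replicate 1 against 3.7 to 15.6 in the other 4, mostly HBB. Fibroblast and epithelial markers (2 of 6 with a mean of at least 10 in MV411 and MOLM13, 3 of 6 in OCI-AML3) summed to 148 to 166 in MV411 under DMSO, 136 to 145 under MI-503, 167 to 192 under AC220 and 209 to 223 under the combination. In MOLM13 they summed to 667 to 717 under DMSO and 512 to 667 under MI-503, and in OCI-AML3 to 474 to 520 and 427 to 562. COL3A1 was at 0 in every MV411 and MOLM13 group and EPCAM in both OCI-AML3 groups. The part of these marker sums in the results was not tested.

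In MV411, MI-503 moved the members in both directions by small amounts relative to the median gene, with more rises than falls. For every treatment of MV411, rises and falls are relative to that gene, as only the median-ratio scale is available there. A shift of all genes together would not show on this scale, and its presence in MV411 was not tested. Of 76 members tested, 32 rose and 13 fell, while 60.6% of all 14421 genes were called, 29.8% higher and 30.8% lower. The members' share is close to this background in total and above it for rises. Their median log2 fold change was 0.07, against -0.01 for all genes, and past 1.5-fold 0 members rose and 2 fell (COX6B2 and NDUFS1), where 10.1% of all genes rose and 10.1% fell that far. Complex I held 20 of the rises and 5 of the falls (37 members, median 0.15), and complex V was even, with 5 rising and 5 falling.

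AC220 and the combination lowered most members they changed. With AC220 14 members rose and 44 fell, with a median of -0.17 against 0.01 for all genes, of which 74.9% were called (37.7% higher, 37.3% lower). With the combination 12 rose and 46 fell, median -0.18 against 0.00, where 79.4% of all genes were called (39.3% higher, 40.1% lower). Past 1.5-fold, 2 members rose and 6 fell under AC220, against 18.5% and 19.6% of all genes. With the combination 2 rose and 14 fell that far, against 23.1% and 23.7%. With AC220 falls outnumbered rises in complex I (24 against 6), complex III (5 against 2), complex IV (7 against 1) and complex V (7 against 5), and in complex II SDHA alone was called. The falls in complex IV include COX6B2, described below without a test, and 3 calls lost without single libraries. These were COX5A (adjusted p = 0.0527 without AC220 replicate 1), COX5B (0.172 without DMSO replicate 2) and COX8A (0.247 without DMSO replicate 3). These comparisons share the DMSO libraries, so their values are set side by side and not correlated. MI-503 was given for 3 days and AC220 for 24 h, so drug and exposure time cannot be told apart where the drugs are contrasted.

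**Figure D1:**
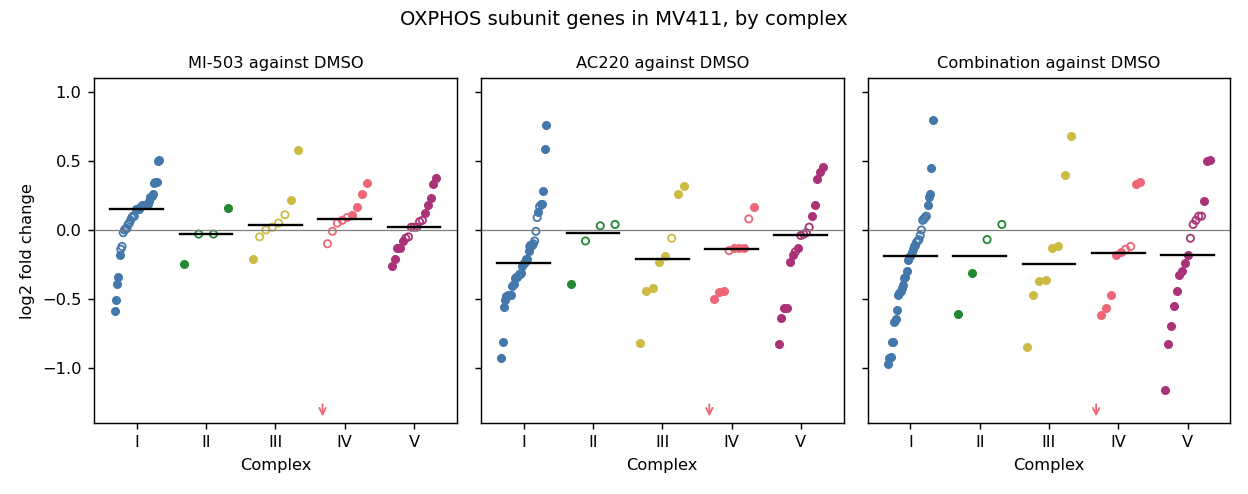
Log2 fold change against DMSO (vertical axis) of each tested member in MV411, grouped by complex (horizontal axis), for MI-503, AC220 and the combination. Each point is 1 gene, filled where the adjusted p was under 0.05, black bars are the median of the complex, and the arrow marks COX6B2, which lies below the axis; the medians of complex I sit above 0 under MI-503 and below 0 under AC220 and the combination.

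Among the core subunits of complex I, the changes did not go one way. NDUFS1 (chromosome 2, 206114817 to 206159444, GRCh38.p14), which carries iron-sulfur clusters of the electron path, had 3205, 3278 and 3358 normalised reads under DMSO, 2106, 2191 and 2221 under MI-503, 2479, 2662 and 2564 under AC220, and 1726, 1805 and 1687 under the combination. All treated libraries lay below all DMSO libraries, and the combination lay below each drug alone. The log2 fold changes were -0.59 ± 0.0449 (adjusted p = 6.69e-11), -0.35 ± 0.0449 (adjusted p = 1.85e-07) and -0.92 ± 0.0449 (adjusted p = 4.18e-15). The combination fell below AC220 alone by 0.56 on the log2 scale (adjusted p = 2.42e-10), and the interaction term was 0.03 ± 0.0636 (adjusted p = 0.718).

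NDUFV2 (chromosome 18, 9102699 to 9134341), an iron-sulfur subunit next to the flavin site, was also lowest under the combination. It had 2600, 2625 and 2716 normalised reads under DMSO, 1846, 1869 and 1856 under MI-503, 1745, 1799 and 1827 under AC220, and 1429, 1336 and 1392 under the combination. No treated group overlapped the control. Changes were -0.51 ± 0.0446 under MI-503 (adjusted p = 8.11e-10), -0.56 ± 0.0446 under AC220 (adjusted p = 5.21e-11) and -0.93 ± 0.0446 under the combination (adjusted p = 2.48e-15).

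The small iron-sulfur subunits near the quinone site went the other way under MI-503. NDUFS7 (chromosome 19, 1383907 to 1395584) had 635.7, 672.5 and 544.2 normalised reads under DMSO and 960.4, 789.2 and 891.8 under MI-503, with no overlap (0.51 ± 0.0951, adjusted p = 6.32e-05). With AC220 its libraries (765.8, 660.5 and 654.1) overlapped the control (0.17 ± 0.0951, adjusted p = 0.111). NDUFS8 (chromosome 11, 68030681 to 68036644) had 674.7, 615.3 and 610.6 under DMSO, 874.2, 826.2 and 987.3 under MI-503 and 510.5, 504.4 and 508.7 under AC220. It therefore rose under MI-503 (0.50 ± 0.0799, adjusted p = 1.04e-05) and fell under AC220 (-0.32 ± 0.0799, adjusted p = 0.00105), and under the combination it overlapped the control (0.10 ± 0.0799, adjusted p = 0.237). NDUFS3, a core subunit of the arm that reaches into the matrix, rose under AC220 from 2138, 2055 and 2209 to 3202, 3293 and 3156 normalised reads (0.59 ± 0.0442, adjusted p = 1.8e-11). NDUFV1, which binds NADH and the flavin, did not pass with any of the treatments (0.01, 0.09 and -0.04 for MI-503, AC220 and the combination).

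Of the 30 other members counted under complex I by name, NDUFA4 among them, 17 rose and 2 fell under MI-503 (median 0.15), 5 rose and 20 fell under AC220 (median -0.25), and 3 rose and 20 fell under the combination (median -0.19). NDUFB6 (chromosome 9, 32553001 to 32573159), a membrane-arm subunit whose promoter is printed above, had 554.8, 621.3 and 539.3 normalised reads under DMSO, 510.3, 521.2 and 540.4 under MI-503, 291.7, 297.4 and 308.8 under AC220 and 278.6, 279.8 and 318 under the combination. The last 2 groups lay wholly below the first 2. Its change was -0.93 ± 0.0754 under AC220 (adjusted p = 8.35e-11) and -0.12 ± 0.0754 under MI-503 (adjusted p = 0.163).

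NDUFB5, another membrane-arm subunit, moved opposite to NDUFB6. It had 2116, 2199 and 2123 normalised reads under DMSO, 2695, 2746 and 2731 under MI-503, 3603, 3586 and 3704 under AC220 and 3440, 3818 and 3996 under the combination. Every treated library was above every control library, with changes of 0.34 ± 0.0476, 0.76 ± 0.0476 and 0.80 ± 0.0476 (adjusted p = 1.27e-06, 7.06e-13 and 1.56e-13). NDUFS5, a small subunit on the outer side of the membrane arm, fell under AC220 (-0.81 ± 0.0495, adjusted p = 3.86e-13) and was 0.07 ± 0.0495 under MI-503 (adjusted p = 0.2).

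In complex II, SDHA, the flavoprotein that oxidises succinate (chromosome 5, 218320 to 268746), fell under all 3 treatments. Its normalised counts were 4185, 3928 and 4091 under DMSO, 3339, 3373 and 3547 under MI-503, 3052, 3169 and 3090 under AC220 and 2808, 2573 and 2595 under the combination. The groups descended in that order without overlap, at -0.25 ± 0.0446, -0.39 ± 0.0446 and -0.61 ± 0.0446 (adjusted p = 3.82e-05, 3.3e-08 and 7.31e-12). SDHA has near-identical pseudogene copies, and reads shared with them cannot be assigned with certainty. SDHB, the iron-sulfur subunit, rose under MI-503 (0.16 ± 0.0439, adjusted p = 0.00281), SDHC, a membrane anchor, fell under the combination (-0.31 ± 0.0507, adjusted p = 7.72e-06), and SDHD, the other anchor, passed in none of the 3 (-0.03, 0.03 and -0.07).

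Complex III divided between subunits with large opposite changes. UQCRQ (chromosome 5, 132866642 to 132868847), a small subunit beside cytochrome b whose promoter holds the ETS match above, had 1781, 1697 and 1710 normalised reads under DMSO, 1708, 1747 and 1820 under MI-503, 940.5, 974.9 and 1026 under AC220 and 984.6, 934.9 and 948 under the combination. It was thus not separated from the control by MI-503 (0.02 ± 0.0504, adjusted p = 0.707) and fell to 0.567 of it under AC220 (-0.82 ± 0.0504, adjusted p = 5e-13). UQCRB, another small subunit near the quinone site, had 7226, 7614 and 7490 under DMSO and rose to 10680, 11170 and 11530 under MI-503, 8430, 9171 and 9102 under AC220 and 11640, 12100 and 11970 under the combination. Its changes were 0.58 ± 0.0413, 0.26 ± 0.0413 and 0.68 ± 0.0413 (adjusted p = 2.34e-11, 5.78e-06 and 2.64e-13), and all treated libraries lay above the control. The core protein UQCRC2 also rose under all 3 (0.22, 0.32 and 0.40), while the Rieske iron-sulfur protein UQCRFS1 fell under all 3 (-0.21, -0.19 and -0.36).

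In complex IV the isoform pairs were uneven. COX6B2 (chromosome 19, 55349704 to 55354719), known as the testis form of subunit 6B, passed the filter in MV411 through its DMSO libraries, with 23.79, 30.11 and 20.52 normalised reads there. It had 1.002, 0 and 0.9736 under MI-503, 5.758, 5.969 and 0.9385 under AC220, and 0, 3.052 and 0 under the combination. The summed reads were 76 under DMSO, 2 under MI-503, 13 under AC220 and 3 under the combination. The ratios to DMSO were 0.0265 (95% exact interval 0.00315 to 0.099), 0.169 (0.0859 to 0.306) and 0.0426 (0.0086 to 0.129), and these intervals cover counting error only. Because it was tested through its control libraries alone, these values are a description with no test, although COX6B2 is among the members counted as falling above. COX6B1, the form used in most tissues, rose under MI-503 (0.26 ± 0.0511, adjusted p = 0.000117), AC220 (0.17 ± 0.0511, adjusted p = 0.00414) and the combination (0.35 ± 0.0511, adjusted p = 1.49e-06).

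The tissue-restricted isoforms COX6A2, COX7B2, COX8C and COX7A1 were at or near 0 in MV411: COX6A2 and COX7B2 were at 0 in all 12 libraries, COX8C reached at most 8.208 and COX7A1 at most 6.964 normalised reads. COX4I2, the hypoxia-related form of subunit 4, was at 0 in 11 of the 12 libraries. COX4I1, the common form, rose under MI-503 (0.29 ± 0.0395, adjusted p = 8.82e-07), AC220 (0.14 ± 0.0395, adjusted p = 0.00255) and the combination (0.32 ± 0.0395, adjusted p = 9.64e-08). COX6C, a small membrane subunit, had 4317, 4272 and 4298 under DMSO and 3961, 4520 and 4346 under MI-503, which overlapped (-0.01 ± 0.0548, adjusted p = 0.902), and 3069, 2984 and 3420 under AC220, which did not (-0.45 ± 0.0548, adjusted p = 1.05e-07). COX7A2, COX7B and COX7C, the small subunits of series 7, were -0.44, -0.50 and 0.08 under AC220, of which COX7A2 and COX7B passed. NDUFA4L2, the hypoxia-induced relative of NDUFA4, had 64.71, 90.33 and 81.09 normalised reads under DMSO, 21.05, 25.33 and 24.34 under MI-503 and 10.56, 5.969 and 7.508 under AC220, without overlap (-1.69 ± 0.259, adjusted p = 5.31e-06, and -3.16 ± 0.259, adjusted p = 9.45e-11).

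The clearest contrast within complex V was among the genes of the c subunit. ATP5G1, ATP5G2 and ATP5G3 (now ATP5MC1, ATP5MC2 and ATP5MC3) differ in their import sequences and are known to encode the same mature protein, which forms the rotor ring. ATP5G1 (chromosome 17, 48892787 to 48895871) had 1646, 1590 and 1778 normalised reads under DMSO, 1691, 1723 and 1655 under MI-503, 884.8, 1001 and 938.5 under AC220 and 833.4, 747.7 and 663.8 under the combination. MI-503 left it within the control range (0.02 ± 0.0677, adjusted p = 0.845), AC220 lowered it (-0.83 ± 0.0677, adjusted p = 9.66e-11) and the combination lowered it further (-1.16 ± 0.0677 against DMSO, adjusted p = 1.11e-13, and -0.34 ± 0.0677 against AC220, adjusted p = 0.0002).

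ATP5G3 (chromosome 2, 175176258 to 175181710) had 5106, 4858 and 5223 under DMSO, 4888, 4948 and 4788 under MI-503, 3197, 3270 and 3247 under AC220 and 3443, 3563 and 3397 under the combination, so the groups under AC220 lay below the others (-0.64 ± 0.0402 under AC220, adjusted p = 6.27e-13). ATP5G2 (chromosome 12, 53665170 to 53681423) went the opposite way, from 8373, 8607 and 8887 under DMSO to 11380, 11050 and 11240 under MI-503, 11650, 12170 and 11770 under AC220 and 12890, 12380 and 11620 under the combination. It rose in each (0.38 ± 0.0404, 0.46 ± 0.0404 and 0.51 ± 0.0404, adjusted p = 2.13e-08, 3.48e-10 and 3.58e-11). Of the summed normalised reads of the 3 genes, ATP5G1 held 10.6 to 11.2% under DMSO and 5.63 to 6.09% under AC220, ATP5G3 32.3 to 33.8% and 19.9 to 20.3%, and ATP5G2 55.4 to 57.2% and 73.8 to 74.1%. The sum itself was 15050 to 15890 under DMSO and 15730 to 16440 under AC220. These shares are of reads, not corrected for transcript length.

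**Figure D2:**
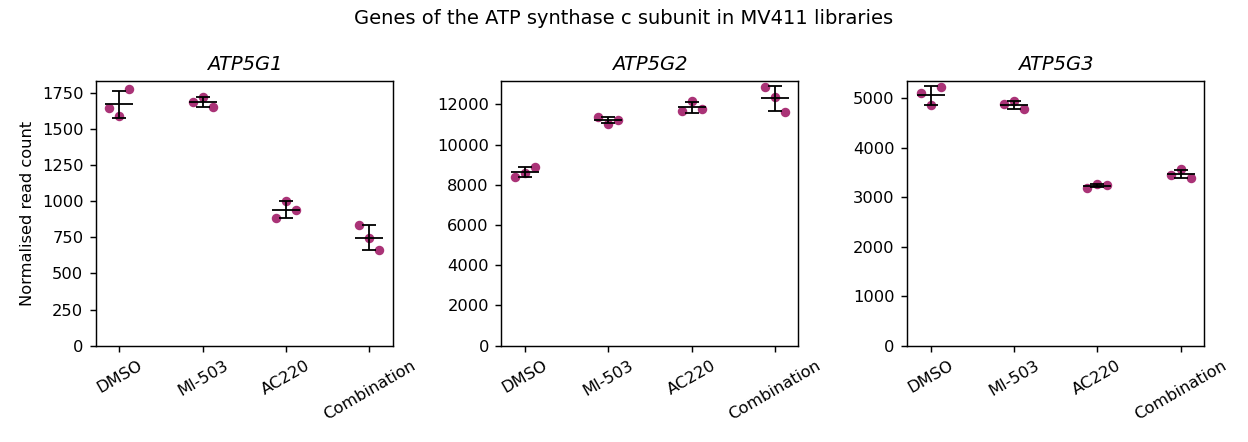
Normalised read count (vertical axis, from 0, a separate scale for each gene) of the 3 genes of the ATP synthase c subunit in the 12 MV411 libraries, by treatment (horizontal axis). Points are libraries and bars are the mean ± SD of 3; ATP5G1 and ATP5G3 are lower and ATP5G2 is higher under AC220 than under DMSO.

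In the catalytic head of complex V, ATP5B, the beta subunit, had 27180, 27370 and 28830 normalised reads under DMSO, 25880, 26330 and 26460 under MI-503, 23360, 24100 and 23740 under AC220 and 20930, 20670 and 20020 under the combination. The groups descended in that order without overlap. ATP5B fell under AC220 (-0.23 ± 0.0359, adjusted p = 4.62e-06) and the combination (-0.44 ± 0.0359, adjusted p = 7.53e-11). Its change under MI-503 was -0.08 ± 0.0359 (adjusted p = 0.0488), a call lost without DMSO replicate 2 (adjusted p = 0.0524) or 3 (adjusted p = 0.197) or any of the MI-503 libraries (adjusted p from 0.0763 to 0.138). ATP5A1, the alpha subunit, was -0.13 under MI-503, 0.02 under AC220 and -0.30 under the combination, and the first and last passed. ATP5C1, the gamma subunit of the central stalk, fell under MI-503 (-0.21 ± 0.0386, adjusted p = 6.85e-05) and the combination (-0.24 ± 0.0386, adjusted p = 6.62e-06). ATP5J, a subunit of the side stalk, fell in all 3 (-0.26, -0.57 and -0.83), and ATP5L, a membrane subunit at the dimer interface, rose in all 3 (0.33, 0.37 and 0.50). ATP5S, which is no enzyme subunit, rose under AC220 (0.42 ± 0.0692, adjusted p = 9.42e-06).

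Adding AC220 to MI-503 lowered 50 members and raised 5 (median -0.27 against 0.02 for all genes, of which 68.5% were called, 34.9% higher and 33.6% lower). Past 1.5-fold 0 rose and 9 fell, against 14.3% and 15.2% of all genes. ATP5G1 (-1.18 ± 0.0677), NDUFS5 (-0.88 ± 0.0495) and UQCRQ (-0.88 ± 0.0504) fell the most and NDUFB5 rose the most (0.46 ± 0.0476). Adding MI-503 to AC220 changed fewer, 23 lower and 12 higher (median -0.03 against -0.01, where 55.5% of all genes were called, 27.4% higher and 28.1% lower). Past 1.5-fold 0 rose and 1 fell, against 9.90% and 6.92%. That 1 was COX6B2, whose groups overlapped at the few reads given above and whose call was lost without AC220 replicate 1 (adjusted p = 0.162) or 2 (adjusted p = 0.17) or combination replicate 1 or 3 (adjusted p = 0.144 for each). There NDUFS1 (-0.56) and NDUFV2 (-0.37) fell, while NDUFS8 (0.42 ± 0.0799, adjusted p = 9.93e-05) and UQCRB (0.42 ± 0.0413, adjusted p = 8.21e-09) rose.

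The interaction test asked whether the combination differed from the sum of the single effects on the log2 scale. It called 22 members below additivity and 2 above (median -0.10 against -0.02), with 42.5% of all genes called, 20.9% above and 21.6% below. Past 1.5-fold 1 was above and 0 below, against 9.50% and 6.29%. The count of 24 fell to 15 without DMSO replicate 1 and reached 32 without another library. NDUFS3 stood furthest below (-0.51 ± 0.0626, adjusted p = 5.27e-07): its 2591, 2598 and 2470 normalised reads under the combination lay just above those of MI-503 (2329, 2445 and 2469) and below all of AC220. ATP5G1 (-0.35 ± 0.0958, adjusted p = 0.00468), ATP5G2 (-0.33 ± 0.0572, adjusted p = 5.71e-05) and NDUFB5 (-0.30 ± 0.0673, adjusted p = 0.00092) followed. The 2 above were ATP5G3 (0.15 ± 0.0568, adjusted p = 0.0336) and COX6B2. The ATP5G3 call was lost without any of several libraries, DMSO replicate 1 among them (adjusted p = 0.0639). That of COX6B2 is not read as a result, since its reads were near 0 under both MI-503 and the combination and it was tested through its DMSO libraries.

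MI-503 was also given to MOLM13 and OCI-AML3, the former with an MLL fusion and the latter without one, and here the scale decides how many members are called. Relative to the median gene, 13 of 75 members rose and 35 fell in MOLM13 (median -0.07 against -0.01, with 59.9% of all 13393 genes called, 29.8% higher and 30.1% lower). Past 1.5-fold 0 rose and 1 fell there, against 10.6% and 4.39% of all genes. In OCI-AML3 66 of 79 rose and 5 fell (median 0.32 against -0.00, with 65.5% of 15700 genes called, 32.8% higher and 32.8% lower). On the deposited scale all genes shifted by -0.54 in MOLM13 and by -0.16 in OCI-AML3. On that scale 74 members fell and 0 rose in MOLM13 (median -0.60, with 83.4% of all genes called, 6.74% higher and 76.7% lower). In OCI-AML3 1 rose and 0 fell on that scale (median 0.16, with 10.7% of all genes called, 3.85% higher and 6.82% lower). The deposited factors of OCI-AML3 also differ between libraries of the same group, which widens the spread of all genes there. The median of the members relative to that of all genes was -0.06 in MOLM13 and 0.33 in OCI-AML3 on the deposited scale.

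**Figure D3:**
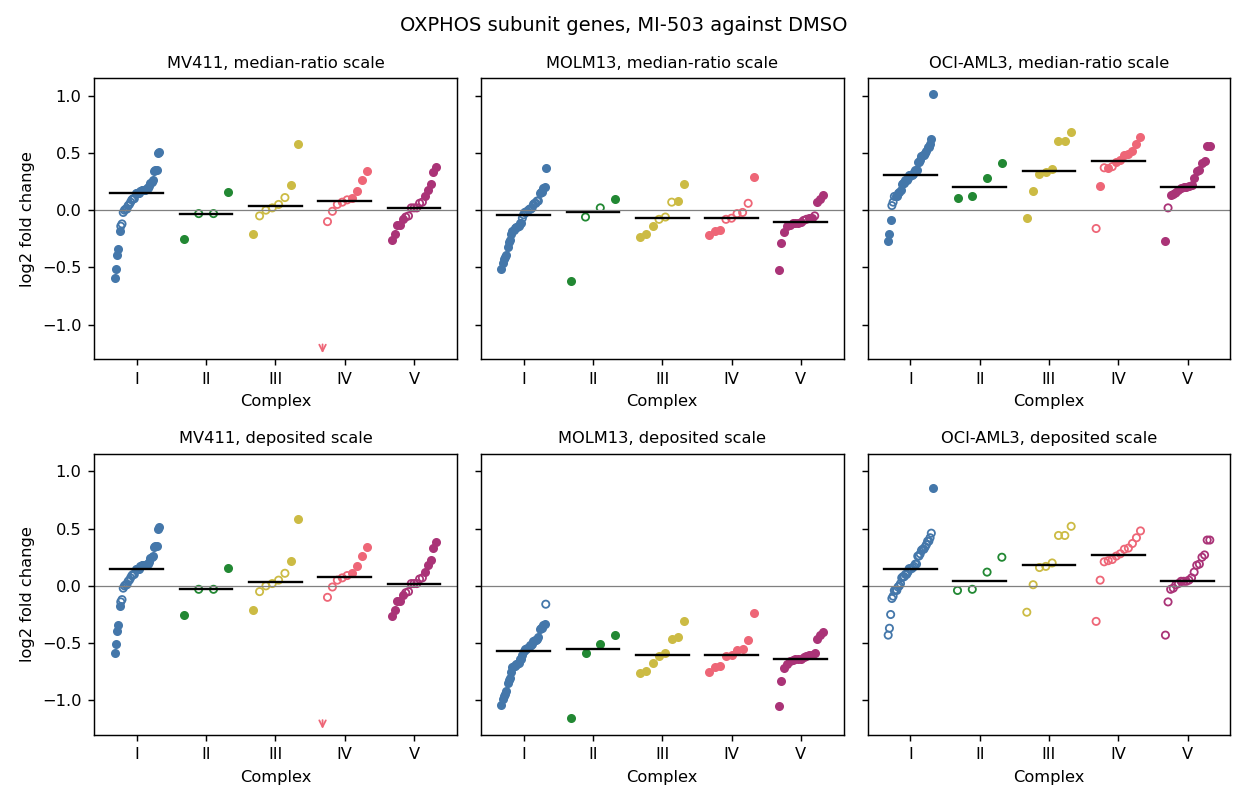
Log2 fold change under MI-503 against DMSO (vertical axis) of each tested member by complex (horizontal axis) in the 3 lines, on the median-ratio scale (top) and the deposited scale (bottom). Filled points had an adjusted p under 0.05, bars are medians of the complex and the arrow marks COX6B2; the OCI-AML3 medians lie above 0 on the top row, where 73 of 79 members are positive, and the MOLM13 medians lie below 0 on the bottom row.

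In OCI-AML3 the rises ran through every complex: 31 of 37 in complex I (median 0.31), 4 of 4 in complex II (0.20), 7 of 8 in complex III (0.34), 9 of 12 in complex IV (0.43) and 15 of 18 in complex V (0.21). Leaving out ATP5S and ATP5SL gave 65 rising and 4 falling of 77. Without the 2 libraries that held erythroid reads, 67 rose and 5 fell, with a median of 0.33. Past 1.5-fold 6 rose and 0 fell, where 9.15% of all genes rose and 7.80% fell that far.

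NDUFA8 (chromosome 9, 122132466 to 122159779), an accessory subunit with paired cysteines, had the largest rise in OCI-AML3. It had 4559, 4190 and 4459 normalised reads under DMSO and 8943, 8697 and 8916 under MI-503, a wide gap of 2.01-fold (1.01 ± 0.0341, adjusted p = 1.62e-10). It was the 1 member that also passed on the deposited scale (0.85, adjusted p = 0.0214). In MV411 it rose from 1010, 1055 and 1099 to 1183, 1185 and 1210 (0.18 ± 0.0578, adjusted p = 0.0105), and in MOLM13 the groups overlapped, with 998.4, 1025 and 1043 against 978.8, 1015 and 926.4 (-0.07 ± 0.0451, adjusted p = 0.186). Other large rises were in UQCR10 (0.68 ± 0.029) and UQCRQ (0.60 ± 0.0289), small subunits of complex III, COX5B (0.64 ± 0.0293), the zinc-binding subunit of complex IV, and NDUFA1 (0.62 ± 0.0573), a membrane-arm subunit of complex I. COX5B, for example, went from 4801, 4841 and 4846 to 7782, 7425 and 7394 normalised reads, and no library overlapped. ATP5G1 and ATP5G3, which fell under AC220 in MV411, rose here under MI-503 (0.56 ± 0.0331, adjusted p = 2.31e-08, and 0.35 ± 0.0254, adjusted p = 1.29e-07).

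Among the 5 members that fell in OCI-AML3 were NDUFV2 (-0.27 ± 0.0339, adjusted p = 1.68e-05), ATP5S (-0.27 ± 0.0545, adjusted p = 0.000875), NDUFS1 (-0.09 ± 0.0273, adjusted p = 0.00973) and UQCRH, the hinge protein of complex III (-0.07). The UQCRH call was lost without any of 4 libraries, among them DMSO replicate 1 (adjusted p = 0.052), and UQCRH shares sequence with a near-identical copy, UQCRHL. On the deposited scale the values were -0.43 for NDUFV2, -0.43 for ATP5S and -0.25 for NDUFS1, none of which passed.

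The largest falls in MOLM13 were those of SDHA, ATP5D, NDUFS1, NDUFS7 (-0.46) and NDUFB7, an accessory subunit of complex I (-0.43). SDHA had 6129, 6053 and 6114 normalised reads under DMSO and 4188, 3841 and 3907 under MI-503, with no overlap (-0.62 ± 0.0321, adjusted p = 5.12e-11). NDUFS1 went from 4944, 4839 and 4954 to 3470, 3394 and 3485 (-0.51 ± 0.0278, adjusted p = 9.32e-11) and NDUFV2 from 2657, 2605 and 2471 to 2019, 1895 and 1991 (-0.39 ± 0.0368, adjusted p = 1.14e-07). ATP5D, the delta subunit of the central stalk, fell from 683.6, 681.9 and 703.5 to 544.6, 414.3 and 490.1 (-0.52 ± 0.0762, adjusted p = 1.75e-05). Of the 7 core subunits of complex I, 5 fell and 0 rose in MOLM13 (median -0.39). The largest rises, NDUFB9 (0.37), COX6C (0.29 ± 0.0382, adjusted p = 5.47e-06) and UQCRB (0.23 ± 0.026, adjusted p = 1.15e-06), have the opposite sign on the deposited scale (-0.16, -0.24 and -0.31, of which those of COX6C and UQCRB passed).

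Across the 3 lines, 10 of the 75 members tested in each rose under MI-503 in all 3 on the median-ratio scale (13.3%, against 7.13% of 12634 genes), and 3 fell in all 3 (4.00%, against 7.22%). The 10 were NDUFA1, NDUFA4, NDUFA12, NDUFB5, NDUFB9, NDUFB11, SDHB, UQCRB, ATP5G2 and ATP5O, with the SDHB call in MOLM13 lost without DMSO replicate 1 (adjusted p = 0.106) or MI-503 replicate 2 (adjusted p = 0.066). NDUFS1 and NDUFV2 were among those that fell. NDUFS1 gave -0.59 in MV411, -0.51 in MOLM13 and -0.09 in OCI-AML3, and NDUFV2 gave -0.51, -0.39 and -0.27. In each line all 3 treated libraries lay below all 3 controls for these genes. The fall of NDUFS1 in OCI-AML3, from 10320, 10380 and 10600 to 10040, 9656 and 9650, was the smallest of these. On the deposited scale the 10 had negative values in MOLM13 (NDUFB9 did not pass), and none of the 13 passed in OCI-AML3.

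**Figure D4:**
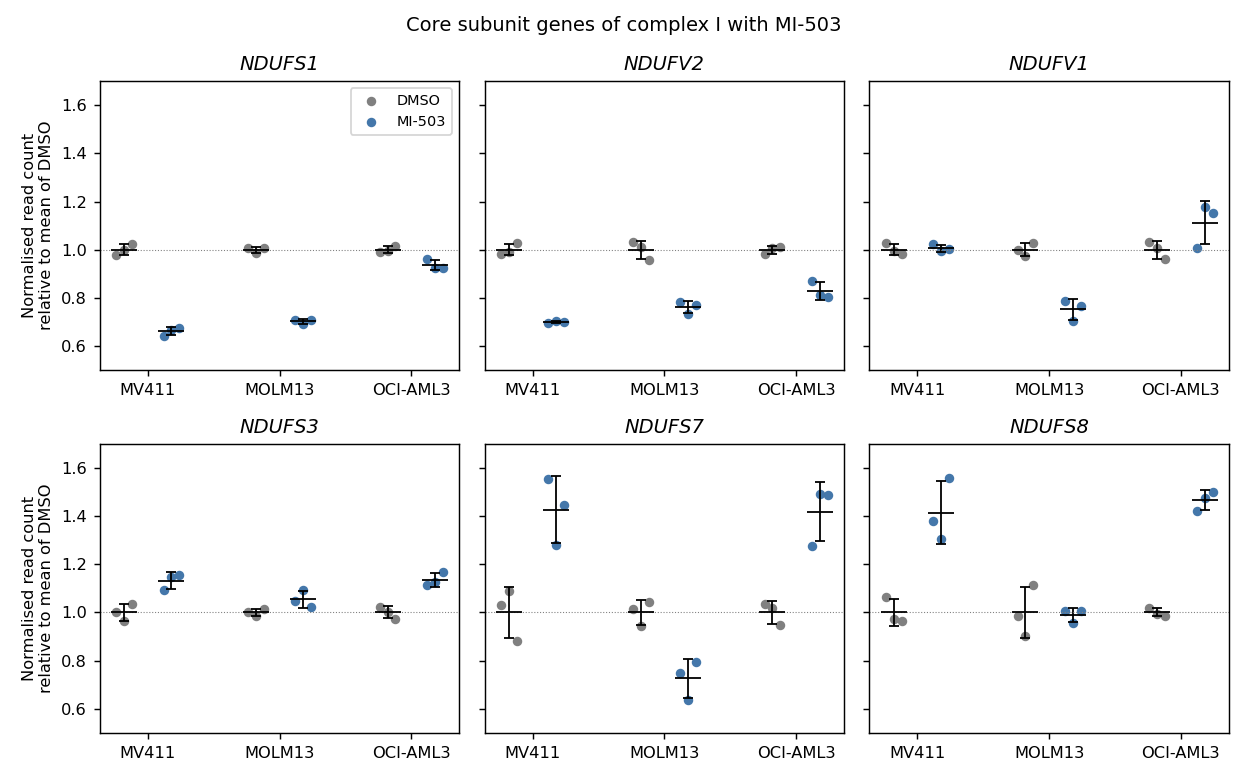
Normalised read count relative to the mean of the DMSO libraries of the same line (vertical axis, starting at 0.5) for 6 core subunits of complex I in the 3 lines (horizontal axis), under DMSO in grey and MI-503 in blue. Points are libraries and bars are the mean ± SD of 3; NDUFS1 and NDUFV2 are below DMSO in every line, while NDUFS7 is above it in MV411 and OCI-AML3 and below it in MOLM13.

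The differences between lines were tested directly. The MI-503 effect was higher in MV411 than in MOLM13 for 34 members and lower for 6 (median 0.12 against -0.01, with 57.0% of all genes called, 26.4% higher and 30.6% lower). Past 1.5-fold the counts were 1 and 0, against 6.97% and 12.6%. NDUFS7 differed most: in MOLM13 it went from 316.7, 294.4 and 325.5 to 233.7, 198.9 and 247.5 normalised reads (-0.46 ± 0.088), opposite to its rise in MV411, and the difference was 0.98 ± 0.125 (adjusted p = 5.08e-07). On the deposited scale 74 members were higher and 0 lower, where 77.5% of all genes were called, 69.5% higher and 8.08% lower. That scale differs from the median-ratio scale in MOLM13 only, since the MV411 factors are the same on both. The difference thus sets unlike normalisations against each other, and its median over all genes was 0.52.

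The effect was lower in MOLM13 than in OCI-AML3 for 62 members and higher for 2 (median -0.39 against 0.00, with 62.8% of all genes called, 32.3% higher and 30.6% lower). Past 1.5-fold it was lower for 18 and higher for 0, against 8.52% and 12.5%. On the deposited scale it was lower for 46 and higher for 0, where 24.7% of all genes were called, 4.70% higher and 20.0% lower. It was lower in MV411 than in OCI-AML3 for 49 members and higher for 3 (median -0.26 against 0.00, with 63.0% of all genes called, 31.3% higher and 31.8% lower), and past 1.5-fold lower for 5 and higher for 0, against 12.4% and 11.9%. On the deposited scale, which differs from the median-ratio scale in OCI-AML3 only, 19.6% of all genes were called there, 12.9% higher and 6.66% lower. On that scale the effect in MV411 was lower for 2 members and higher for 0. The 2 were NDUFA8 and COX6B2, and the latter, tested in MV411 through its DMSO libraries, is not read as a result. NDUFA8 differed by -1.08 ± 0.0547 between MOLM13 and OCI-AML3 (adjusted p = 1.64e-11) and by -0.83 ± 0.0558 between MV411 and OCI-AML3 (adjusted p = 1.14e-10). COX6B2 had 17.58, 10.82 and 15.91 normalised reads under DMSO and 15.72, 21.82 and 19.83 under MI-503 in OCI-AML3, which overlapped. The MI-503 exposure was 3 days in MV411 and 4 days in the other lines, and this difference cannot be told apart from that between the lines.

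The members' coding length, which the name rule did not use, was set beside the changes as a description across genes that share libraries. In OCI-AML3 Spearman's rho over 79 members was -0.52, against -0.09 over 13338 genes. There 39 of 46 members with a coding length of at most 500 nt rose (median 0.39), as did 9 of 11 above 1000 nt (median 0.15). Over all genes of these lengths in OCI-AML3 the medians were 0.09 (1090 short genes) and -0.02 (9258 long genes). In MOLM13 rho was -0.21 (75 members), and 8 of the 11 long members fell and 0 rose. In MV411 rho was -0.15 under MI-503 and 0.27 under AC220 (76 members), with values over all genes of 0.06 and 0.08. NDUFS1 (2223 nt) and SDHA (1992 nt) are the longest members. Transcript length, base composition and RNA quality were not separated from function here, and their part was not tested.

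**Figure D5:**
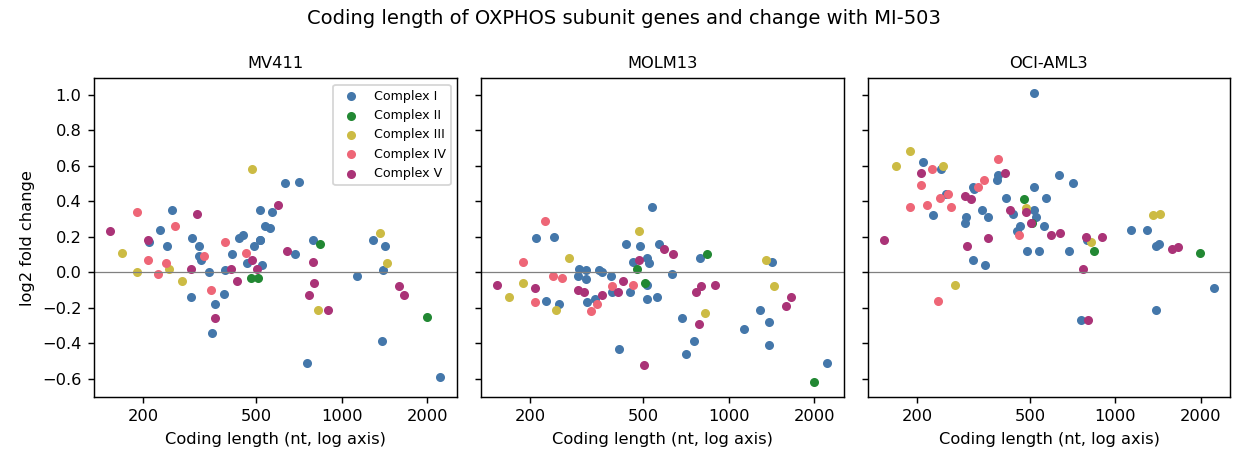
Log2 fold change under MI-503 on the median-ratio scale (vertical axis) against the longest annotated coding length (horizontal log axis, nt) of each tested member in the 3 lines, coloured by complex. Each point is 1 gene and COX6B2 in MV411, below the axis, is not drawn; in OCI-AML3 the short members sit higher than the long ones, with a rho of -0.52.

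Genes around the complexes were taken from 4 lists, with the same tests, and their counts are to be read against the shares of all genes called, which were 60.6% for MI-503, 74.9% for AC220 and 79.4% for the combination in MV411, 59.9% in MOLM13 and 65.5% in OCI-AML3. Calls in OCI-AML3 came down on the deposited scale, where 83.4% of all genes were called in MOLM13 and 10.7% in OCI-AML3, to 1 further subunit (NDUFA4L2) and 1 assembly factor (COX19), both lower, and 0 of the citrate cycle genes and regulators. Of the 42 assembly factors tested, 10 rose and 17 fell under MI-503 in MV411, 8 and 25 under AC220, and 5 and 29 under the combination (medians -0.08, -0.27 and -0.46). With AC220 COX19, a copper-handling factor, rose (0.97 ± 0.0481, adjusted p = 8.04e-15) and NDUFAF2 of complex I assembly fell (-1.09 ± 0.102, adjusted p = 1.12e-09). SCO1, which delivers copper to complex IV, fell in MV411 under MI-503 (-0.69 ± 0.0656), AC220 (-0.92 ± 0.0656, adjusted p = 7.34e-12) and the combination (-1.59 ± 0.0656). It also fell under MI-503 in MOLM13 (-0.65 ± 0.0395, adjusted p = 3.99e-10). In MOLM13 4 assembly factors rose and 23 fell (0 and 41 on the deposited scale), and in OCI-AML3 23 rose and 7 fell (0 and 1).

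Of 9 further subunits and carriers tested, 2 rose and 5 fell under MI-503 in MV411, 3 and 5 under AC220, 1 and 5 under the combination, 1 and 3 in MOLM13 (0 and 9 on the deposited scale) and 7 and 2 in OCI-AML3 (0 and 1). CYCS, the electron carrier cytochrome c, fell under MI-503 (-0.53 ± 0.0634), AC220 (-1.61 ± 0.0634, adjusted p = 9.27e-17) and the combination (-1.60 ± 0.0634). NDUFAB1, the acyl carrier subunit of complex I, fell under AC220 (-0.83 ± 0.0559) and rose under MI-503 in OCI-AML3 (0.38 ± 0.0309, adjusted p = 3.76e-07), a call not held on the deposited scale (0.22, adjusted p = 0.705).

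The 13 citrate cycle genes gave 4 rises and 6 falls under MI-503 in MV411, 4 and 7 under AC220, 3 and 7 under the combination, 0 and 10 in MOLM13 (0 and 13 on the deposited scale) and 8 and 1 in OCI-AML3 (0 and 0). CS, citrate synthase, rose under AC220 (0.57 ± 0.0372, adjusted p = 1.7e-12), while SUCLG2, a succinyl-CoA ligase subunit, fell (-0.76 ± 0.0607). Of the regulators, 2 rose and 4 fell under MI-503 in MV411, 2 and 7 under AC220 and 2 and 6 under the combination of 9 tested, with 1 and 6 of 10 in MOLM13 (1 and 9 on the deposited scale) and 1 and 6 of 9 in OCI-AML3 (0 and 0). The 1 rise in MOLM13 was PPARGC1A, with 0, 0.9812 and 3.024 normalised reads under DMSO and 31.09, 32.79 and 33.26 under MI-503. It was tested through its MI-503 libraries alone, so this call is not read as a result. PPARGC1B, a coactivator of mitochondrial genes, rose under MI-503 (0.58 ± 0.0588) and AC220 (0.51 ± 0.0588), whereas TFAM, which packages mitochondrial DNA, fell (-0.52 ± 0.0669 and -1.01 ± 0.0669) and GABPB1, a subunit of GABP, fell under AC220 (-1.05 ± 0.0608, adjusted p = 1.55e-13). In OCI-AML3 TFAM fell (-0.41 ± 0.0266) and YY1 fell (-0.27 ± 0.0244), each relative to the median gene and neither past the threshold on the deposited scale (adjusted p = 0.198 and 0.378).

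Several members overlap or resemble other genes, and their values are less certain: NDUFC2 and ATP5J2 have readthrough transcripts with a neighbour, NDUFB2, NDUFA6 and NDUFV2 have antisense genes, and strand use in counting is not given in the sources used here.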

How the data were processed

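Inputs were 3 deposited tables, 1 per line, with 0 per-sample columns left out. The deposited values are signal: per the labels, reads were paired and spike-in RNA was added per fixed number of cells, and per the submitters' processing notes values were normalised with DESeq version 2 on hg38. The aligner, counting program and annotation are not given in the sources used here. In each library 100% of values were whole reads divided by 1 factor (tolerance 0.001), so reads were recovered. All 3 inputs are named as ERCC-normalised, that is, to spike-in RNA. For MV411, however, these factors were those of the median-of-ratios method over genes, so no spike-in scale is given for MV411. The deposited values of MOLM13 and OCI-AML3 were 0.7972 to 1.313 times the values under median-of-ratios factors. Their reads were therefore rescaled by median-of-ratios factors, and both scales are given. Whether the deposited factors of these 2 lines came from the spike-in was not tested.

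limma 3.58.1 (R 4.3.3) fitted log2(value + 1) with a variance trend over all genes whose deposited value reached 10 in 3 or more libraries. Tests were two-sided, and p-values were adjusted by Benjamini-Hochberg, with a threshold of 0.05. All 12 MV411 libraries entered a single model, and line differences were differences of within-line effects. A fold change on this scale understates the change of low genes. The 11 comparisons are given with the share of all genes called. Alternatives used edgeR 4.0.16 and DESeq2 1.42.0 on recovered reads, TMM or deposited factors, pseudocounts of 0.5 and 8, a minimum of 50 or none, a replicate block, only the groups compared, and each library left out. Leaving out both OCI-AML3 libraries with erythroid reads was added after seeing the data.

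Members and gene lists were chosen with earlier results of these data known. Named members were core subunits and tissue isoforms, up to 2 called members per direction and complex against DMSO with a group mean of at least 100 (up to 3 per direction elsewhere), and up to 2 genes per direction of each neighbour list. Values outside that rule were chosen after they were seen: NDUFB5, NDUFB6, NDUFS5, UQCRQ, NDUFA8 and ATP5S for MI-503 in MV411, ATP5J, ATP5L and COX7C for AC220, NDUFB5 for the interaction, NDUFA8 in MOLM13, and the members called in all 3 lines. Of the neighbours these were SCO1 and COX4I1 for AC220 and PPARGC1A in MOLM13. Replicates are called biological triplicates in the labels, and p-values measure the spread between these samples, which may be technical. Replicates of 1 group differed beyond the noise of counting (chi-square per degree of freedom 1.59 to 9.06 over 24 pairs). Tested on simulated reads, the fit recovered 82.6% of 1.5-fold and 92.3% of 2-fold changes for MI-503 in MV411 (14181 and 14192 genes) and 71.4% and 86.3% for the interaction (14194 and 14196 genes). False calls were 4.73% and 5.73% of all calls for the former and 3.45% and 2.86% for the latter, and up to 7.92% in OCI-AML3. Only 192 to 198 genes were changed in these simulations, far fewer than the real comparisons call, and smaller changes were not simulated. These rates may therefore not hold for the calls above. All 81 members matched a RefSeq gene, 19 by an older symbol, and coordinates are GRCh38.p14. The values of 1 member and 1 marker gene are not reported here.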

Additional observations from a re-analysis of the deposited data

Results flagged for a closer look

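Differences between lines in the MI-503 effect passed the test of the difference itself (limma on the median-ratio scale, n = 3 libraries per group) for the following members, each chosen as the largest of its direction and pair of lines. Between MV411 and MOLM13 the effect was higher in MV411 for NDUFS7 (0.98, adjusted p = 5.08e-07), ATP5D (0.54, adjusted p = 0.000198) and NDUFB7 (0.53, adjusted p = 0.000605). It was lower in MV411 for NDUFA5 (-0.35, adjusted p = 0.000468), COX6C (-0.30, adjusted p = 0.000278) and NDUFC2 (-0.18, adjusted p = 0.00511), and for these the sign turned on the deposited scale (0.18, 0.23 and 0.35). That scale shifts all genes of MOLM13 and leaves MV411 as it is.

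Between MOLM13 and OCI-AML3 the effect was higher in MOLM13 for NDUFB9 (0.25, adjusted p = 0.00134) and UQCRH (0.15, adjusted p = 0.000755), both of which turned on the deposited scale (-0.12 and -0.22). It was lower in MOLM13 for NDUFA8 (-1.08, adjusted p = 1.64e-11), NDUFS7 (-0.97, adjusted p = 4.51e-07) and NDUFB7 (-0.85, adjusted p = 5.94e-06), and these passed on the deposited scale too.

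Between MV411 and OCI-AML3 the effect was higher in MV411 for UQCRB (0.22, adjusted p = 0.00031), ATP5S (0.21, adjusted p = 0.0432) and ATP5G2 (0.17, adjusted p = 0.00885). The ATP5S call was lost without any of several libraries, MV411 DMSO replicate 1 among them (adjusted p = 0.0982). It was lower in MV411 for NDUFA8 (-0.83, adjusted p = 1.14e-10), UQCR10 (-0.67, adjusted p = 1.58e-10) and NDUFB6 (-0.64, adjusted p = 3.07e-07). Of these 6, NDUFA8 alone passed on the deposited scale (adjusted p = 0.0467), which differs from the median-ratio scale in OCI-AML3 only.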

How the results depend on the processing

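Across TMM factors, pseudocounts of 0.5 and 8, a minimum of 50 or none, edgeR and DESeq2 on recovered reads, only the groups compared, and the OCI-AML3 fits without both libraries with erythroid reads, every count of members called stayed within 1.5 times its value in the report. The deposited factors moved 4 counts: 74 members were called in MOLM13 (48 in the report), 1 in OCI-AML3 (71), 74 for MV411 against MOLM13 (40) and 2 for MV411 against OCI-AML3 (52). Those factors differ from the ones of the report in MOLM13 and OCI-AML3 only. No alternative but the deposited factors turned the sign of a named value that passed in the report or in the alternative. Values that passed in neither were not counted. With the deposited factors 32 of the counted values changed sign, by their construction as a shift of all genes. In MOLM13 they became NDUFS3 -0.46, SDHB -0.43, SDHD -0.51, UQCRC2 -0.46, COX6C -0.24, ATP5G2 -0.40, NDUFB9 -0.16, NDUFA4 -0.33, UQCRB -0.31, UQCRH -0.45, ATP5O -0.43, NDUFA4L2 -0.44, ATPIF1 -0.38, UQCC2 -0.13 and COX11 -0.33. In OCI-AML3 they became NDUFV1 -0.01, SDHA -0.04, SDHB -0.03, ATP5A1 -0.02 and ATP5B -0.03. For MV411 against MOLM13 they became NDUFV2 0.41, NDUFS1 0.45, SDHD 0.47, COX6C 0.23, ATP5C1 0.39, NDUFA5 0.18, NDUFC2 0.35 and NDUFA4 0.48, for MOLM13 against OCI-AML3 NDUFB9 -0.12 and UQCRH -0.22, and for MV411 against OCI-AML3 UQCRC2 0.05 and COX5A 0.06. Leaving out each library gave 41 to 44 calls for MI-503 in MV411, 53 to 58 for AC220, 55 to 63 for the combination, 53 to 59 against MI-503, 29 to 35 against AC220, 15 to 32 for the interaction (15 without DMSO replicate 1), 39 to 52 in MOLM13, 66 to 72 in OCI-AML3, and 37 to 42, 63 to 68 and 46 to 54 for the differences MV411 to MOLM13, MOLM13 to OCI-AML3 and MV411 to OCI-AML3.

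Replicate numbers are shared between groups, but same-numbered libraries did not deviate together (correlations of -0.08 to 0.12, 1 of 24 over 0.1). The fit with the replicate block called 45 members for MI-503 in MV411, 61 for AC220, 59 for the combination, 55 and 35 for the combination against MI-503 and AC220, 22 for the interaction, 51 in MOLM13, 70 in OCI-AML3, and 39, 64 and 49 for the line differences in the same order. Depth limits COX6B2, COX7A1, COX8C and ATP5L2, whose reads are few.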
